A study of Mus musculus with 4 samples.

Results

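The genes described here are the mouse genes named Zfp followed by a number only, a name given to genes whose protein carries zinc fingers. Every probe set with 1 annotated gene of such a name was taken, Zfp36, Zfp42, Zfp281 and Zfp352 were left out, and where a gene had several probe sets the brightest, averaged over the 4 arrays, was kept. This gave 274 genes, read by 468 probe sets, out of 17097 named genes on the array. Membership follows from the name alone, but this group of names was picked for description with earlier results of these data known. The RefSeq gene table of the mouse holds 372 genes with names of this form, and the 274 measured ones all matched it by Entrez identifier.

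Total RNA of J1 mouse embryonic stem cells, an established pluripotent line grown in serum and LIF without feeder cells, was measured on 4 Affymetrix 3' arrays. The protocol in the labels names iP14 cells without and with Dox (doxycycline, an agent used to switch on transgenes). The 4 conditions were a scramble control without PRDM14, the scramble control with PRDM14 overexpression, a combined short hairpin knockdown of Tet1 and Tet2 without PRDM14, and the same knockdown with PRDM14 overexpression. The labels for the first condition also call the cells wild type, and whether each line was 1 clone or a pool is not given in the sources used here. The design text asks what TET1 and TET2, enzymes that oxidise 5-methylcytosine, do in gene regulation by PRDM14. There was 1 array per condition, so replicate error is unknown for every difference and the number of arrays limits how precise a value can be. The values are log2 signals, on which a difference of 1 is a factor of 2.

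Most proteins of this name bind DNA through rows of C2H2 zinc fingers, each a short loop held by a zinc ion between cysteines and histidines. Many also carry a KRAB domain, which recruits TRIM28 and, through it, the histone methyltransferase SETDB1 and HP1 proteins, and in embryonic stem cells this machinery silences retroviral elements and keeps the methylation of imprinted regions. Genes of the KRAB class often lie side by side in clusters, and the name also covers proteins that act in splicing, ribosome assembly or mitosis. Near-identical copies are common in the family, so a probe set may read more than 1 gene.

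The median log2 signal of all probe sets lay between 5.09 and 5.11 on the 4 arrays. Of the targeted genes, Tet2 read 8.46 in scramble cells and 7.50 in knockdown cells without PRDM14, and 9.33 and 8.15 with it. Prdm14 read 4.35 to 4.83, below the expression filter of 5.40 on all 4 arrays, so the PRDM14 labels were not checked by it, and Tet1 was not analysed here. All 7 measured stem cell markers (Pou5f1, Sox2, Nanog, Esrrb, Zfp42, Dppa5a and Utf1) lay above the filter on every array, and none of 6 fibroblast and feeder markers did on any. Of 5 primitive endoderm markers 1 or 2 lay above it, at up to 5.94, and of 4 neuroectoderm markers only Pax6 did, on 3 of the arrays. Pax6 read 6.26 and 7.12 in scramble cells without and with PRDM14 and 5.36 and 5.69 in knockdown cells, and its part in the results below was not tested. Since these are bulk samples, fewer cells of a type and less RNA per cell cannot be told apart.

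Of the 274 genes 169, or 61.7%, reached the filter, the median signal of the named probe sets, on at least 1 array, close to the 61.5% of all named genes. The other 105 lay below it on all 4 arrays, and 152 lay above it on all 4. The genes above the filter had a median mean signal of 6.63, against 6.88 over all named genes above it. The brightest was Zfp622, whose protein takes part in assembly of the large ribosomal subunit, at 10.28, 10.60, 10.36 and 10.39. Values of 4 arrays are given throughout in the order scramble without PRDM14, scramble with it, knockdown without it, knockdown with it, called array order. It was followed by Zfp207, a spindle and kinetochore protein that binds BUB3, at 10.11, 10.09, 9.92 and 9.84. Zfp97, Zfp462 and Zfp982 came next in that ranking. Signals of different probe sets are not levels on 1 scale, so this order describes brightness only. The median distance between a gene's highest and lowest array was 0.29 for the Zfp-named genes and 0.26 for all named genes.

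As a group these genes read low on the knockdown array without PRDM14, by a small amount. In the knockdown against the scramble control, both without PRDM14, 105 of 165 genes were below 0 and 60 above, so that 63.6% were lower against 48.3% of all 10351 genes above the filter. Their median difference was -0.07, against 0.01 over all genes. When PRDM14 was added to knockdown cells, 101 of 166 genes were above 0, or 60.8% against 49.5% of all genes, with a median of 0.05 against -0.00095. Both of these comparisons contain the knockdown array without PRDM14, on opposite sides, so they are not separate findings. The low reading was smaller in the second brightest probe sets of the 34 genes that had one above the filter, of which 18 were below 0, or 52.9% against 49% of all genes.

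With PRDM14 in scramble cells 93 of 167 genes were above 0, or 55.7% against 50.4% of all genes, with a median of 0.03 against 0.0020. Here the second brightest probe sets lay further from the background, with 25 of 35 above 0, or 71.4% against 51.8%, and a median of 0.12. In the knockdown against scramble cells, both with PRDM14, 84 of 169 were above 0, or 49.7% against 50.8%, with a median of -0.0012 against 0.0029. For the dependence, the PRDM14 difference in knockdown cells minus that in scramble cells, 92 of 169 were above 0, or 54.4% against 49.1%, and 77 below, or 45.6% against 50.9%, with a median of 0.02. With all 274 genes and no filter the share above 0 was 53.3% for PRDM14 in scramble cells and 58% for PRDM14 in knockdown cells. It was 39.1% for the knockdown without PRDM14 and 48.9% for the knockdown with it. No share has a test, since genes are not replicates and each condition is 1 array.

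**Figure D1:**
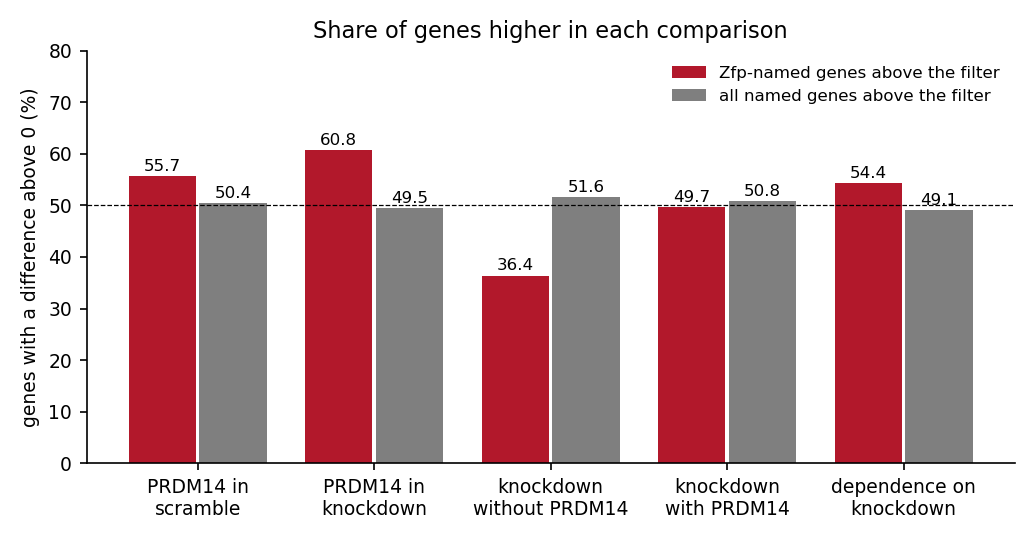
Percentage of genes above the filter with a log2 difference above 0 in the 4 comparisons and the dependence, for the Zfp-named genes (red bars) and for all named genes (grey bars); the dashed line marks 50%. The red bar is lowest for the knockdown without PRDM14, at 36.4%, and highest for PRDM14 in knockdown cells, at 60.8%, while the grey bars stay between 49.1% and 51.6%.

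The position of each array among the 4 was then counted, which needs no baseline. The knockdown array without PRDM14 held the lowest of the 4 values for 63 of the 169 Zfp-named genes, or 37.3%, where it did so for 20.7% of all genes. It held the highest value for 25, or 14.8%, against 22.5% of all genes. The scramble array with PRDM14 held the highest value most often, for 58 genes or 34.3%, against 25.9%, and the lowest for 39, or 23.1%, against 26.5%. The scramble array without PRDM14 held the lowest for 39 genes, or 23.1%, against 31.1%, and the highest for 46, or 27.2%, against 29.7%. The knockdown array with PRDM14 held the lowest for 28, or 16.6%, against 21.7%, and the highest for 40, or 23.7%, against 21.9%. The median distance from a gene's own mean over the 4 arrays was -0.04 on the knockdown array, 0.03 on the scramble array with PRDM14, 0.01 on the knockdown array with PRDM14 and -0.00066 on the scramble array. Over all genes above the filter these medians lay between -0.0032 and 0.0043. Against the scramble array with PRDM14, which shares neither factor with it, the knockdown array was lower for 111 of 169 genes, 65.7% against 48.6% of all genes, with a median of -0.08. This difference and the positions of the knockdown array rest on the same array as the shares above, so they are not separate findings.

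**Figure D2:**
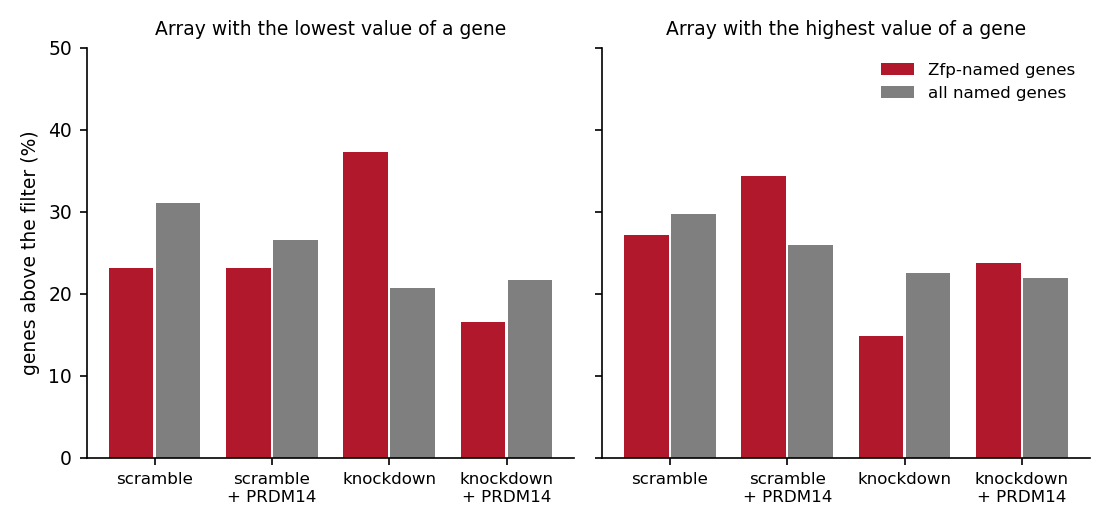
Percentage of genes above the filter whose lowest value (left) or highest value (right) of the 4 lay on each array, for 169 Zfp-named genes (red) and all 10519 named genes (grey). The knockdown array without PRDM14 holds the lowest value of 37.3% of the Zfp-named genes and of 20.7% of all genes.

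The displacement was seen at the outer as well as the inner percentiles. In the knockdown without PRDM14 the 10th, 25th, 75th and 90th percentiles of the Zfp-named genes were -0.36, -0.18, 0.07 and 0.19, where those of all genes were -0.27, -0.11, 0.14 and 0.33. With PRDM14 in knockdown cells the same percentiles were -0.15, -0.05, 0.16 and 0.34 for the Zfp-named genes and -0.21, -0.09, 0.09 and 0.20 for all genes. Genes above the filter on any of the 4 arrays, which adds up to 4 Zfp-named genes to a comparison, were also divided into 3 bands of equal size by mean signal. In the knockdown without PRDM14 the share below 0 was 61.5% of 65 Zfp-named genes in the dimmest band, against 51.3% of all its genes. It was 56.5% of 62 in the middle band, against 49.7%, and 71.4% of 42 in the brightest band, against 43.6%, where the median was -0.14 against 0.04. With PRDM14 in knockdown cells the share above 0 was 53.8%, 69.4% and 57.1% in the 3 bands from dim to bright, against 47.4%, 50.2% and 50.7%. In the brightest band 64.3% of the Zfp-named genes were also below 0 in the knockdown with PRDM14, against 47.2% of all genes.

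**Figure D3:**
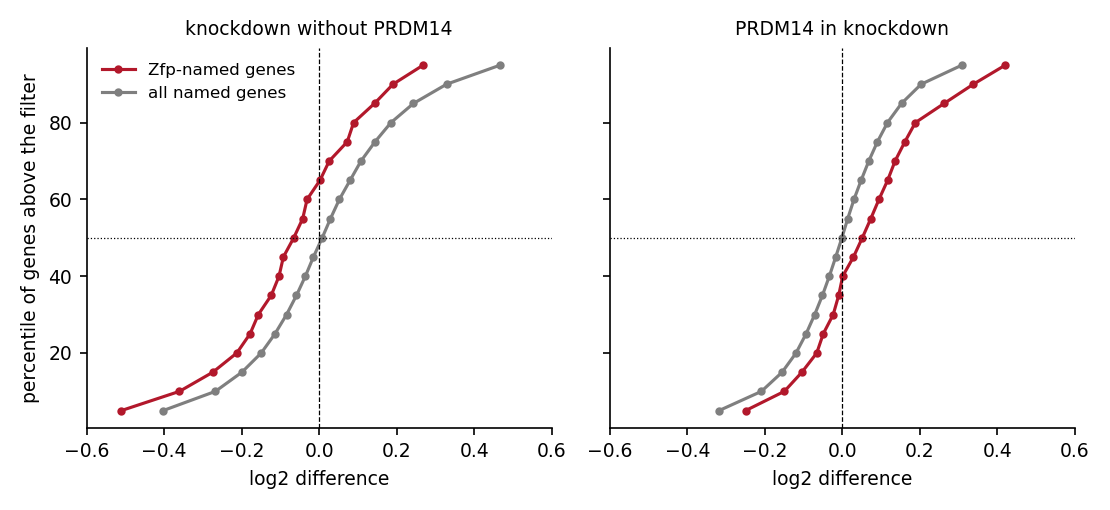
Percentiles (5th to 95th, in steps of 5) of the log2 difference for the Zfp-named genes (red) and all named genes (grey) above the filter, in the knockdown without PRDM14 (left) and for PRDM14 in knockdown cells (right); vertical dashes mark 0. The red curve lies left of the grey one on the left, with medians of -0.07 and 0.01, and right of it on the right, with medians of 0.05 and -0.00095.

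Few single genes stood out. At least 2-fold in 1 or more of the 4 comparisons were 6 of the 169 genes, or 3.55%, against 3.34% of all genes, so the share of large differences was close to that of all genes. With PRDM14 in scramble cells 2 of 167 genes were higher by 2-fold or more and 3 were lower by as much, where 1.09% and 1% of all genes were. With PRDM14 in knockdown cells 1 of 166 was higher and none lower (0.359% and 0.272% of all genes). In the knockdown without PRDM14 1 of 165 was higher and 1 lower (0.618% and 0.444%), and in the knockdown with PRDM14 1 of 169 was higher and none lower (0.63% and 0.475%).

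Zfp947 and Zfp229 were highest on the scramble array. Zfp947 read 8.90 there and 7.64, 7.99 and 7.86 on the rest in array order. It was thus 2.40-fold lower with PRDM14 in scramble cells, at -1.26, and at -0.13 with PRDM14 in knockdown cells. A second Zfp947 probe set read 6.27 to 6.47 and gave 0.20 and 0.07 for the same differences, so its probe sets went opposite ways in scramble cells. Zfp229 has 1 probe set, which read 7.35 in the scramble control and 6.19, 6.12 and 5.86 on the rest in array order. It was 2.23-fold lower with PRDM14 in scramble cells (-1.16) and 2.35-fold lower in the knockdown without PRDM14 (-1.23), 2 differences that share the scramble array, while in the knockdown with PRDM14 it was at -0.33.

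Zfp423, a many-fingered cofactor of SMAD proteins in BMP signalling that also commits cells to fat, showed the opposite shape. It read 5.82, 7.001, 6.86 and 6.70 in array order, lowest on the scramble array and within 0.30 of each other on the rest. It was 2.27-fold higher with PRDM14 in scramble cells (1.18) and 2.06-fold higher in the knockdown without PRDM14 (1.04), at -0.16 with PRDM14 in knockdown cells and at -0.30 in the knockdown with PRDM14. Zfp507 and Zfp626 stood apart on the scramble array with PRDM14 instead. Zfp507 read 7.72, 6.54, 7.34 and 7.34 in array order, a difference of -1.18 with PRDM14 in scramble cells, which a second probe set at 5.33 to 5.40 gave as -0.03. Zfp626 read 5.48, 6.54, 5.85 and 5.90 in array order, a difference of 1.07 in scramble cells and 0.05 in knockdown cells, with its other probe sets below the filter. Zfp52 read 4.24, 4.61, 4.90 and 6.09, above the filter on the knockdown array with PRDM14 alone. It differed by 1.19 with PRDM14 in knockdown cells and by 1.47 in the knockdown with PRDM14, but by 0.69 in both once signals under the filter were set to it, and its second probe set lay below the filter throughout.

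**Figure D4:**
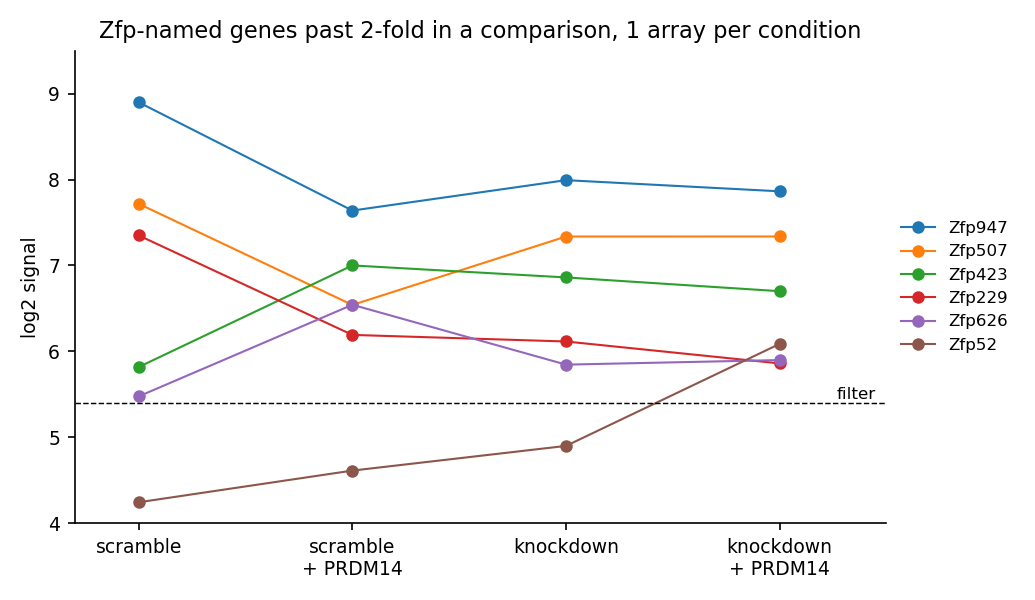
Log2 signal on the 4 arrays, 1 per condition, of the 6 Zfp-named genes that were at least 2-fold apart in a comparison; each point is 1 array, lines join the points of a gene, and the dashed line marks the filter at 5.40. Zfp947 and Zfp229 are highest and Zfp423 lowest on the scramble array, and Zfp52 crosses the filter on the knockdown array with PRDM14 alone.

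The 250 bases before the annotated start are shown for 4 of these genes, chosen after their values were seen, taken from RefSeq on GRCm38.p6 and written on the strand of the gene, as examples of promoters poor and rich in CpG, the dinucleotide on whose methylated form TET enzymes act. CpG dinucleotides are in capitals, and where a gene has several starts the one with most CpG is printed. No genome build is named for the arrays, and methylation was not measured in these files.
Zfp229 (chr17:21733474-21733723, plus strand): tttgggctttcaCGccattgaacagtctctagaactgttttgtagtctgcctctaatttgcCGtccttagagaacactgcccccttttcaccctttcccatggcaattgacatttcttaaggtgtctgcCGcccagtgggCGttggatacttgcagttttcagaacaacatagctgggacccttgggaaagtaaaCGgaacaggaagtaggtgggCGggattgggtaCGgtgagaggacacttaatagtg
Zfp947 (chr17:22165978-22166227, minus strand): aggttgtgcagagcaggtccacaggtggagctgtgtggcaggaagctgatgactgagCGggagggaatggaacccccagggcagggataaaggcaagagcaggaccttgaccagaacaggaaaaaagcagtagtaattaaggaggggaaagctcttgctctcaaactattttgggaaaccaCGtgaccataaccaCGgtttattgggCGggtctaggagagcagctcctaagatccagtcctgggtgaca
Zfp626 (chr7:27806946-27807195, plus strand): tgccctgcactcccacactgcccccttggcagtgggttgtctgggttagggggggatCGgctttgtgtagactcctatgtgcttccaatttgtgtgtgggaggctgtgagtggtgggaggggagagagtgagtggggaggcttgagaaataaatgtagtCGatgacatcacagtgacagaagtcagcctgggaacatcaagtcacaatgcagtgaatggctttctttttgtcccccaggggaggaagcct
Zfp423 (chr8:87959596-87959845, minus strand): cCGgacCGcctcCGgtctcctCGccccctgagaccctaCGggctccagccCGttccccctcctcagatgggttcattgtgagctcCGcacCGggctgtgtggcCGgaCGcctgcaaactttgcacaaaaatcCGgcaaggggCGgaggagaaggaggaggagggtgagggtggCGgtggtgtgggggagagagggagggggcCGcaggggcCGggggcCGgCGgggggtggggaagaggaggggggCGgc
The stretch of Zfp229 holds 7 CpG, that of Zfp947 4 and that of Zfp626 2, while that of Zfp423 holds 18. Over the whole window of 300 bases, which runs on past the start, the 6 genes past 2-fold held 8 CpG for Zfp229, 6 for Zfp947, 2 for Zfp626, 21 for Zfp423, 16 for Zfp507 and 5 for Zfp52. The 4 stretches serve as examples of this range, and no link between CpG and signal is drawn from them.

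Over the group, the share that read low was alike at low and high promoter CpG. RefSeq promoter windows of 300 bases, 250 before to 50 after a start, were found for 227 of the 274 genes and 136 of those above the filter. Their median CpG count was 17, against 22 for all genes above the filter. In the knockdown without PRDM14 62 of 96 Zfp-named genes with 22 CpG or fewer were below 0, or 64.6%, and 25 of 40 with more, or 62.5%, while the other genes stood at 47.6% and 47.8%. With PRDM14 in knockdown cells 64.6% and 62.5% of the same genes were above 0, against 48.2% and 50% of other genes. With PRDM14 in scramble cells 58.3% of the CpG-poor and 50% of the CpG-rich Zfp-named genes were above 0, and the other genes showed a like split of 53.2% and 47.4%. The published PRDM14 motif GGTCTCTAA, searched on both strands, was present in 84 of 32851 promoter windows of all genes, or 0.256%, and in 0 of the 278 windows of the Zfp-named genes. That says only that these letters are not in those windows.

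Past the 6 genes, the largest differences in each comparison were under 2-fold. With PRDM14 in scramble cells Zfp37 (-0.85), Zfp105 (-0.68) and Zfp318 (-0.67) were lowest after those named, and Zfp654 (0.81), Zfp869 (0.75), Zfp296 (0.59) and Zfp553 (0.57) highest. In knockdown cells the PRDM14 differences of Zfp59 (-0.74), Zfp318 (-0.39), Zfp428 (-0.34), Zfp566 (-0.31), Zfp296 (-0.30) and Zfp516 (-0.29) lay at the lower end. A second Zfp318 probe set above the filter gave 0.17 there, the opposite sign. Zfp59, Zfp516, Zfp105 and Zfp654 were read by probe sets marked by the maker as shared or cross-matching. Zfp869 (0.67), Zfp51 (0.55), Zfp932 (0.54), Zfp266 (0.54) and Zfp760 (0.52) lay at the upper end after Zfp52. Zfp869 and Zfp51 were thus higher with PRDM14 in both backgrounds, by 0.75 and 0.67 for Zfp869 and by 0.54 and 0.55 for Zfp51. Zfp869 read 4.91, 5.67, 5.08 and 5.75 in array order, and with values raised to the filter its differences were 0.27 and 0.35. Zfp51 read 6.25, 6.80, 6.05 and 6.60 in array order, above the filter on every array. Of the 169 genes 100 had the same sign in both PRDM14 comparisons, which share no array, or 59.2% against 55.3% of all genes, and 64 of these were above 0 in both.

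In the knockdown without PRDM14 the lower end, after Zfp229, was Zfp947 (-0.91), Zfp979 (-0.60), Zfp326 (-0.59), Zfp62 (-0.59) and Zfp110 (-0.56). Zfp979, among the brighter genes, read 9.71, 9.43, 9.12 and 9.05 in array order, lower on both knockdown arrays. Zfp566 (0.56), Zfp553 (0.44), Zfp593 (0.39), Zfp626 (0.37) and Zfp131 (0.29) followed Zfp423 at the upper end. A second Zfp553 probe set above the filter gave -0.04. Zfp593 was read by a probe set marked as cross-matching, and its other probe set, at 5.23 to 5.43, gave -0.10. In the knockdown with PRDM14 the lower end was Zfp428 (-0.91), Zfp654 (-0.84), Zfp59 (-0.66), Zfp626 (-0.64), Zfp296 (-0.61) and Zfp74 (-0.41). At the upper end, after Zfp52, came Zfp507 (0.80), Zfp647 (0.79), Zfp692 (0.60), Zfp266 (0.56) and Zfp37 (0.51). The 2 knockdown comparisons share no array, and 91 of 169 genes had the same sign in both, or 53.8% against 53.2% of all genes, 56 of them below 0 in both.

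The dependence was at least 2-fold for 5 of 169 genes, 3 above 0 and 2 below, where 0.979% and 1.29% of all genes were. Zfp507 (1.18), Zfp947 (1.13) and Zfp37 (1.04) were above, followed by Zfp229 (0.90), Zfp326 (0.83) and Zfp52 (0.82), and Zfp423 (-1.34) and Zfp626 (-1.01) below, followed by Zfp296 (-0.89), Zfp59 (-0.85), Zfp654 (-0.74) and Zfp566 (-0.69). Zfp37 read 6.08, 5.22, 5.55 and 5.73 in array order, and with values raised to the filter its dependence was 0.86. Its second probe set, below the filter on every array, gave a dependence of 0.09.

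The genes were also grouped by what their proteins are known to do. Of 5 silencing factors with known targets Zfp57 was not analysed here and Zfp809, a KRAB protein that silences retroviruses, lay below the filter, at -0.0040 in the knockdown without PRDM14. By their brightest probe sets the other 3 were all below 0 in the knockdown without PRDM14 and all above 0 with PRDM14 in knockdown cells, comparisons that share the knockdown array. Zfp568, a KRAB repressor of a placental Igf2 transcript, read 9.46, 9.31, 8.93 and 8.97 in array order. It was lower on both knockdown arrays, at -0.53 without and -0.34 with PRDM14. Zfp932, which binds endogenous retroviruses, read 7.49, 7.57, 7.20 and 7.74, lowest on the knockdown array. Zfp638, which silences unintegrated retroviral DNA, was at -0.04 in the knockdown without PRDM14 and at -0.20 in that with it. A second Zfp638 probe set, at 5.91 to 6.34, gave 0.17 in the knockdown without PRDM14. It gave -0.0063 with PRDM14 in knockdown cells, so both signs were opposite to those of the brightest. All genes of the list were under 2-fold.

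Of 12 promoter-binding and chromatin factors 10 were measured, and with PRDM14 in scramble cells 8 were above 0, with a median of 0.15. Zfp296, a nuclear protein of stem and germ cells that acts at heterochromatin, read 7.88, 8.47, 8.16 and 7.86 in array order, at 0.59 with PRDM14 in scramble cells and -0.30 in knockdown cells. Zfp532 differed by 0.48 and Zfp462, which is needed for heterochromatin at developmental genes, by 0.40 in scramble cells, and by 0.28 and 0.24 in knockdown cells. Zfp217 was at -0.35 and -0.06. In the knockdown with PRDM14 7 of the 10 were below 0, with a median of -0.06.

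Of 11 developmental regulators 7 were above the filter, and Zfp503, Zfp536, Zfp750 and Zfp467 were below it on every array. By their brightest probe sets 6 of the 7 were below 0 with PRDM14 in scramble cells and Zfp423 alone was above. The median was -0.07, and 5 of 7 were below 0 with PRDM14 in knockdown cells. A second Zfp703 probe set, at 5.40 to 5.65, gave 0.12 in scramble cells, the opposite sign. The second of Zfp608, at 5.24 to 5.47, gave 0.15 there, also the opposite sign. With PRDM14 in scramble and knockdown cells Zfp64 was at -0.41 and -0.23. Its other probe sets above the filter gave -0.11 and 0.14, -0.05 and -0.14, and 0.0063 and -0.10. Zfp521, a factor of neural and blood progenitors, was at -0.17 and -0.29. Zfp110, a partner of the neurotrophin receptor p75, read 8.28, 8.01, 7.73 and 7.83 in array order, highest on the scramble array. Of 9 RNA, ribosome, mitosis and ubiquitin factors 8 were measured, 4 above and 4 below 0 in each comparison but the knockdown with PRDM14, where 6 were below. Zfp326, a subunit of the DBIRD complex that links transcription to splicing, read 7.91, 7.50, 7.32 and 7.74, lowest on the knockdown array. Zfp207 was at -0.19 and -0.26 in the knockdown without and with PRDM14. Further Zfp207 probe sets that reached the filter gave -0.27 and 0.14, and -0.32 and 0.06, so their sign was opposite in the knockdown with PRDM14. The role lists hold 3 to 10 genes above the filter on any of the 4 arrays each, too few to set their shares against the background.

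Gene order was used to set genes in runs of neighbours beside the others, and likeness between neighbours was not measured. By RefSeq order, 106 of the 274 genes lay in 19 runs of at least 3 members with no more than 2 other protein-coding genes between neighbours. The 57 of them above the filter and the 112 outside such runs had 63.2% and 61.6% below 0 in the knockdown without PRDM14. With PRDM14 in knockdown cells 63.2% and 58.9% were above 0, and with PRDM14 in scramble cells 61.4% and 53.6%. The longest run, from Zfp677 to Zfp758, had 16 members, of which 8 were above the filter. It held 4 of the largest differences: Zfp52 and Zfp51 near its start and Zfp229 and Zfp947 further along, with Zfp760, at -0.41 in the knockdown without PRDM14 and 0.52 with PRDM14 in knockdown cells, between them. Of its 8 genes above the filter 6 were below 0 in the knockdown without PRDM14, with a median of -0.23, against 48.3% of all genes. With PRDM14 in knockdown cells 6 were above 0, with a median of 0.28, against 49.5% of all genes. Both comparisons contain the knockdown array without PRDM14, and 8 genes are too few for their share to carry weight. With no filter 9 of the 16 members were below 0 in the first comparison and 7 were below 0 in the second. Next to Zfp229 and Zfp947, Zfp820, Zfp942, Zfp943 and Zfp994 lay below the filter.

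**Figure D5:**
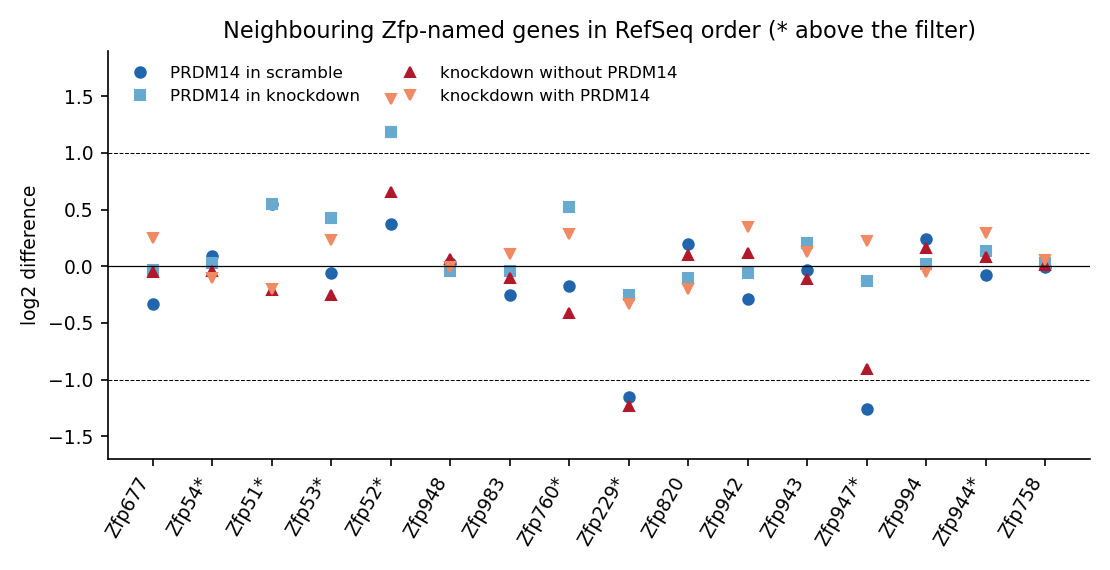
Log2 differences in the 4 comparisons for the 16 neighbouring Zfp-named genes from Zfp677 to Zfp758, in RefSeq gene order and not to distance; an asterisk marks the 8 above the filter, and dashed lines mark 2-fold. Zfp229 and Zfp947 lie near or below -1 in the 2 comparisons against the scramble array, and Zfp52 lies above 1 in the 2 comparisons that end on the knockdown array with PRDM14.

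The cofactors through which KRAB zinc finger proteins repress were listed beside them. Of 27 listed genes 24 were measured and above the filter, none was 2-fold apart in any comparison, and with PRDM14 18 were above 0 and 6 below in scramble as in knockdown cells, with medians of 0.20 and 0.06, where 50.4% and 49.5% of all genes were above 0. These counts have no test. Trim28, the protein that KRAB domains bind, read 11.39, 11.74, 11.49 and 11.51 in array order, highest on the scramble array with PRDM14. Setdb1, the methyltransferase it recruits, read 7.83, 8.24, 7.79 and 7.98, and its partner Atf7ip 6.64, 7.18, 6.71 and 6.95, both highest on that array too. In the knockdown without PRDM14, where the Zfp-named genes read low, 15 of the 24 cofactors were above 0, with a median of 0.03. Of all genes 51.6% were above 0 there, and of those in the brightest band 56.4%. In the knockdown with PRDM14 17 of the cofactors were below 0, with a median of -0.07, against 49.1% of all genes and 47.2% of those in the brightest band. Uhrf1, which guides maintenance methylation, was at 0.90 and 0.45 with PRDM14 in scramble and knockdown cells. The 6 cofactors below 0 with PRDM14 in scramble cells were Chaf1b (-0.24), Dnmt1 (-0.17), Cbx5 (-0.09), Cbx3 (-0.07), Chd3 (-0.03) and Kdm1a (-0.0023).

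Zinc finger genes with other names, taken where any of the 4 arrays reached the filter, gave mixed counts in the knockdown without PRDM14. Of 30 genes named Zbtb, which pair zinc fingers with a BTB domain, 15 were above and 15 below 0. Of 7 named Zkscan, which carry a SCAN domain and often a KRAB domain, 6 were below 0, with a median of -0.26, and 5 were above 0 with PRDM14 in knockdown cells. Of 7 named Zscan 4 were above 0, and of 13 named Klf 6 were above and 7 below. Both genes named Zic above the filter were below 0, and no gene named Znf with a digit was among those measured.

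The average effects of the 2 factors were tested over all 4 arrays in limma, with an additive model that leaves 1 residual degree of freedom per gene and counts any dependence as noise. Of the 169 Zfp-named genes 0 passed a Benjamini-Hochberg adjusted p of 5% for either factor, as did 0 of all 10519 genes, or 0%. The lowest adjusted p among the 169 in limma was 0.782 for PRDM14 and 0.802 for the knockdown. At an unadjusted p under 0.05 there were 10 for PRDM14, 7 higher and 3 lower, against 6.07% of all genes, and 8 for the knockdown, 4 higher and 4 lower, against 5.74%. With no filter these counts over 274 genes were 24 for PRDM14, 16 higher and 8 lower, against 5.82% of all genes, and 20 for the knockdown, 6 higher and 14 lower, against 5.64%. The lowest for PRDM14 were Zfp869, with an average log2 effect of 0.71 ± 0.08 (SE), and Zfp51, with 0.55 ± 0.07 (SE). Those for the knockdown were Zfp61, with 0.48 ± 0.08 (SE), and Zfp52, with 1.07 ± 0.24 (SE), and Zfp568, at -0.44 ± 0.13 (SE), was also among the 8. Zfp61 read 4.90, 4.94, 5.38 and 5.42 in array order. Like Zfp52 it reached the filter on the knockdown array with PRDM14 alone, and Zfp869 did so on the arrays with PRDM14 alone. The effects of these genes thus rest in large part on signals below the filter.

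How far a single probe set can be relied on was read from genes with several. Among 34 Zfp-named genes with at least 2 probe sets above the filter in the knockdown without PRDM14, all probe sets lay on 1 side of 0 in 14, where this held for 60.6% of all such genes. The pooled SD between probe sets of a gene was 0.23, a spread for single genes that does not measure the precision of the group median. With the second brightest probe set, measured above the filter for 34 genes, 18 were below 0 and 16 above, or 52.9% and 47.1%, with a median of -0.03, against 50.9% above for all genes. In knockdown cells with PRDM14 26 of 36 second probe sets were above 0, or 72.2%, against 51.3% for all genes. Of the 169 genes 25 were read by a probe set marked by the maker as shared or cross-matching, and in the knockdown without PRDM14 13 of these and 92 of the 144 others were below 0, or 52% and 63.9%. The knockdown array lay inside the range of the others for Actb and lowest for Gapdh in the 3' to 5' balance of the RNA control probe sets, whose part in the result was not tested. The 3' minus 5' log2 difference of Actb was 0.46, 0.35, 0.40 and 0.39 and that of Gapdh -0.07, -0.15, -0.18 and -0.12 in array order.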

How the data were processed

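The deposited table holds log2 probe set signals for 45141 probe sets on 4 arrays, with 104 array controls. Per the submitters' processing notes the authors used Affymetrix Expression Console, and its version, summary method and background correction are not given here. Base 2 was taken from the usual output of that program and from the range of 2.78 to 13.2, and no source states it. The deposited log2 values had near-equal quartiles on the 4 arrays and were used as they were. A platform annotation, which can be old, gave a single gene for 28898 probe sets, which were used, while 551 had more than 1 gene and 15588 had no name.

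For the shares and 2-fold counts of each of the 4 comparisons a gene passed when an array of that comparison reached 5.40, the median signal of the named probe sets over the 4 arrays, which is not a measured background. For the dependence, array positions, same-sign counts, bands, runs, probe set suffixes, promoter CpG, role lists, other families and limma, a gene passed when any of the 4 arrays reached it. A 2-fold call is a size rule. Average effects were fitted with limma 3.58.1 in R 4.3.3 (lmFit, eBayes with an intensity trend, Benjamini-Hochberg over all genes above the filter), and the scripts were tested on simulated data. Named genes were the brightest, the 6 largest differences in each direction of each comparison, all genes past 2-fold and fixed role lists. The members and lists were chosen with earlier results of these data known. A planned split by KRAB domain was not made because no protein sequences were used here. Alternatives were other filters, fold thresholds, probe set choices and centrings.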

Additional observations from a re-analysis of the deposited data

Results flagged for a closer look

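For 3 genes the PRDM14 difference had opposite signs in scramble and knockdown cells and the difference between them was at least 2-fold, each from 1 array per condition and not tested. Zfp423 was at 1.18 in scramble and -0.16 in knockdown cells, a dependence of -1.34. Zfp37 was at -0.85 and 0.18, a dependence of 1.04. Its second probe set, at 5.12 to 5.21 and so below the filter, gave -0.09 and 0.0029. Zfp507 was at -1.18 and 0.00039, a dependence of 1.18, so its value in knockdown cells is practically 0 and its sign there carries no weight. The pooled SD between probe sets of a gene for PRDM14 in knockdown cells was 0.13. The signs of Zfp423 and Zfp37 there, at -0.16 and 0.18, therefore carry little weight.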

How the results depend on the processing

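No paired analysis was possible because the labels give no replicate numbers to pair by, though the additive limma fit takes each factor within the levels of the other. Leaving out an array would leave its condition with none. Under 7 alternatives (no filter, a filter 1 log2 unit higher, values raised to the filter, the mean of probe sets, probe sets without a suffix, arrays centred on the median, overall or by band of signal) every share and median of the Zfp-named genes stayed within its 95% interval over genes, which is no replicate error. Raising values to the filter cannot change a sign in the 4 comparisons, so it could not have moved their shares. The median of the knockdown with PRDM14, at -0.0012, was 0.0052 with probe sets without a suffix. Under the 7 alternatives the share above 0 in the knockdown without PRDM14 ran from 33.3% to 39.1% and that for PRDM14 in knockdown cells from 58% to 65%. The alternative of the second brightest probe set was chosen after seeing the data. It gave shares above 0 of 71.4% for PRDM14 in scramble cells, 72.2% for PRDM14 in knockdown cells and 47.1% for the knockdown without PRDM14. Its medians were 0.12 for PRDM14 in scramble cells, -0.029 for the knockdown without PRDM14 and -0.027 for the dependence, and it called 0 genes at 2-fold in all 4 comparisons and the dependence. The count of 5 genes past 2-fold with PRDM14 in scramble cells became 2 with the mean of probe sets, 14 at 1.5-fold and 0 at 3-fold. The count of 1 with PRDM14 in knockdown cells became 0 with a filter 1 log2 unit higher, with values raised to the filter, with the mean of probe sets and at 3-fold, and 3 at 1.5-fold. The count of 2 in the knockdown without PRDM14 became 6 at 1.5-fold and 0 at 3-fold. The count of 1 in the knockdown with PRDM14 became 0 under the higher filter, the raised values, the mean and 3-fold, and 9 at 1.5-fold. The dependence count of 5 became 1 with the mean, 19 at 1.5-fold and 0 at 3-fold. In limma 0 genes passed under its 3 alternatives. Zfp52, Zfp61, Zfp37 and Zfp869 read below the filter on at least 1 array, which limits their values.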
